A study of Mus musculus with 12 samples.

Results

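Neurons laser-captured from mouse dorsal root ganglia (DRG) were compared with the whole ganglion, to describe what differs between the preparations alike in both housings. All 12 RNA-seq libraries of the series entered the comparison, 6 from captured neurons and 6 from whole ganglia, with 3 libraries in each of the 4 groups. The mice were C57BL/6, aged 5 to 8 weeks, and had been kept for 10 days either in standard housing, SH, or with environmental enrichment, EE. All ganglia were those of the sciatic nerve, L4 to L6. Each whole-ganglion library pooled 2 mice and each captured library 3 mice. The captured cells were neuron profiles of at least 30 µm, cut by laser from sections of 16 µm stained with toluidine blue. The labels do not say that pools of a group came from different cages or days, so the p-values below measure the spread between these libraries.

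The preparations differed in more than the cells they held. Whole-ganglion RNA had an integrity number (RIN) above 7.5 and was made into libraries by poly(A) selection (TruSeq mRNA, 100-cycle paired-end reads). Captured RNA had a RIN of 6 to 7, was extracted with another kit and was made into libraries by ribosomal depletion (RiboZero, ScriptSeq V2, 100 ng of RNA, paired-end reads of 125 bases). Sequencing lanes were also separate, 4, 5 and 6 for whole ganglia and 1, 2 and 3 for captured neurons. Capture, extraction, RIN, kit, read length and lane therefore cannot be told apart in any difference given below. In these bulk libraries, fewer cells of a type and less RNA per cell cannot be told apart either.

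A sensory ganglion holds the cell bodies of neurons that carry touch, position, heat, itch and pain signals. Large cell bodies mostly belong to myelinated mechanosensory and proprioceptive neurons, which are rich in heavy neurofilament. Small ones mostly belong to nociceptors, thermoreceptors and itch neurons with thin or unmyelinated axons. Each cell body is wrapped by satellite glia, while Schwann cells, fibroblasts, vessels and immune cells lie between the neurons. Poly(A) selection keeps RNAs with a poly(A) tail, and ribosomal depletion also keeps RNAs that lack one.

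Reads assigned to genes numbered 11343579 to 17036481 per whole-ganglion library and 19296230 to 29434351 per captured library. A principal component analysis put 87.0% of the variance on the first component, which separated the preparations, and 2.70% on the second. Levels are given as CPM, read counts scaled to library size with TMM factors, which are not divided by gene length. A gene was called when edgeR's quasi-likelihood test gave a Benjamini-Hochberg adjusted p under 0.05 and a log2 difference of at least 1 in the same direction in both housings. Of 17412 genes tested, 2425 were called higher in captured libraries (13.9%) and 3014 lower (17.3%). With scaling by library size alone, all differences shifted by a median of −0.21 on the log2 scale, and the calls became 1871 higher and 3758 lower, so that 33.2% and not 44.6% of the called genes were higher. For 11308 genes (64.9%), the 6 captured and the 6 whole libraries did not overlap in CPM.

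The difference was largely the same in both housings. In SH, 6607 genes (37.9%) passed the threshold, 3049 higher and 3558 lower, and in EE 6150 genes (35.3%) did, 2730 higher and 3420 lower. The housings share no library, and no gene passed in opposite directions. Of the genes past the threshold in SH, 82.3% were called in both housings, as were 88.4% of those past it in EE. Across the 17412 genes, which are not independent replicates and whose contrasts share the same change of kit, the SH and EE differences had a Pearson r of 0.953 and a Spearman rho of 0.946, and 15935 genes had the same sign.

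**Figure D1:**
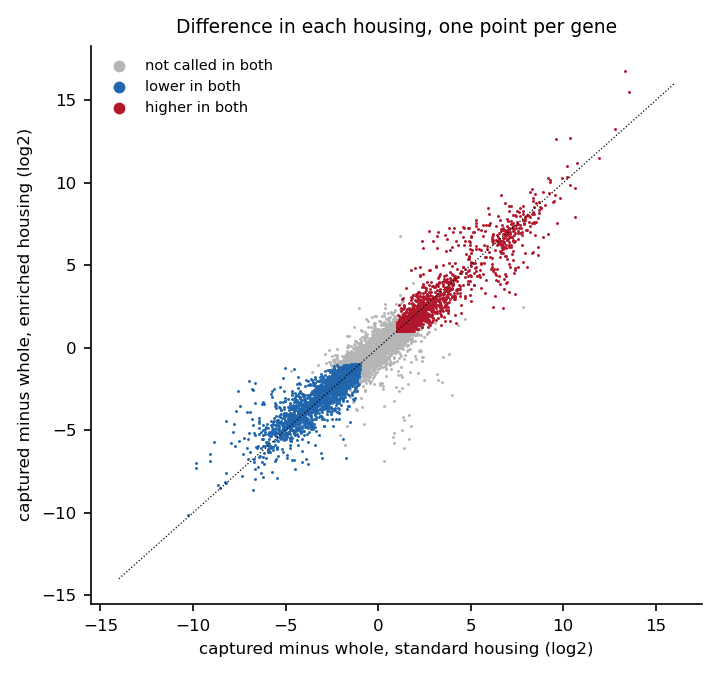
Difference between captured and whole libraries on the log2 scale in standard housing (horizontal axis) and in enriched housing (vertical axis), 1 point per gene for 17412 genes, with the dotted line marking equal differences. The 2425 genes higher and the 3014 lower in both housings lie along that line, and 15935 genes have the same sign on both axes.

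The test of the difference between housings (the interaction in edgeR's quasi-likelihood fit) called 0 genes (0%) at an adjusted p under 0.05. At an unadjusted p under 0.05 it held 2034 genes, where 870.6 would be expected with no difference. DESeq2 called 119 genes and limma-voom 0. Without captured EE replicate 1, the edgeR count was 233. The smallest adjusted p in edgeR, 0.0773, was that of Fnbp1l, a regulator of membrane curvature and actin. Its 3 captured SH libraries held 71.0, 80.0 and 74.5 CPM and its 3 captured EE libraries 46.4, 47.1 and 50.1 CPM, whereas the 6 whole libraries lay between 29.4 and 35.4 CPM. The log2 differences of Fnbp1l were 1.25 in SH and 0.50 in EE. Next came Fxyd7 (−2.27 in SH and −1.63 in EE), Fabp7 (0.08 and 1.01), Chst2 (−0.60 and 0.04) and Osmr (1.19 and 0.63), all at an edgeR adjusted p of 0.0883.

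Myelin genes of Schwann cells were lower in captured libraries. Of 21 listed Schwann cell genes, all tested, 16 were called lower and 0 higher, with a median log2 difference of −2.11 in SH and −2.04 in EE, where the median over all tested genes was −0.0056 and −0.0032. Averaged over both housings the median was 4.12-fold lower. Their summed level was 7175 to 10155 CPM in whole ganglia and 1644 to 2226 CPM in captured libraries, so Schwann cell transcripts remained well above 0 after capture. No cell-type marker that the tables list had 0 reads in all 6 captured libraries.

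Pmp22, a protein of compact peripheral myelin (chr11:63128982-63159547, plus strand, mm10), shows this. Its whole libraries held 2135, 2275 and 1989 CPM in SH and 1785, 2391 and 2137 CPM in EE. Captured libraries held 440, 444 and 451 CPM in SH and 384, 360 and 396 CPM in EE, and the preparations did not overlap. The log2 difference was −2.26 (SE 0.093) in SH and −2.47 in EE, with an edgeR adjusted p of 2.17e-12 in SH. Fa2h, which hydroxylates the fatty acids of myelin lipids, went from 49.5 to 76.2 CPM in whole ganglia to 3.49 to 7.43 CPM. Mbp, a cytoplasmic myelin protein, had a log2 difference of −2.49. Among the 5 genes not called were Mal (−0.91), Dhh (−0.52), Gldn (−0.48) and Gjc3 (−0.09).

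**Figure D2:**
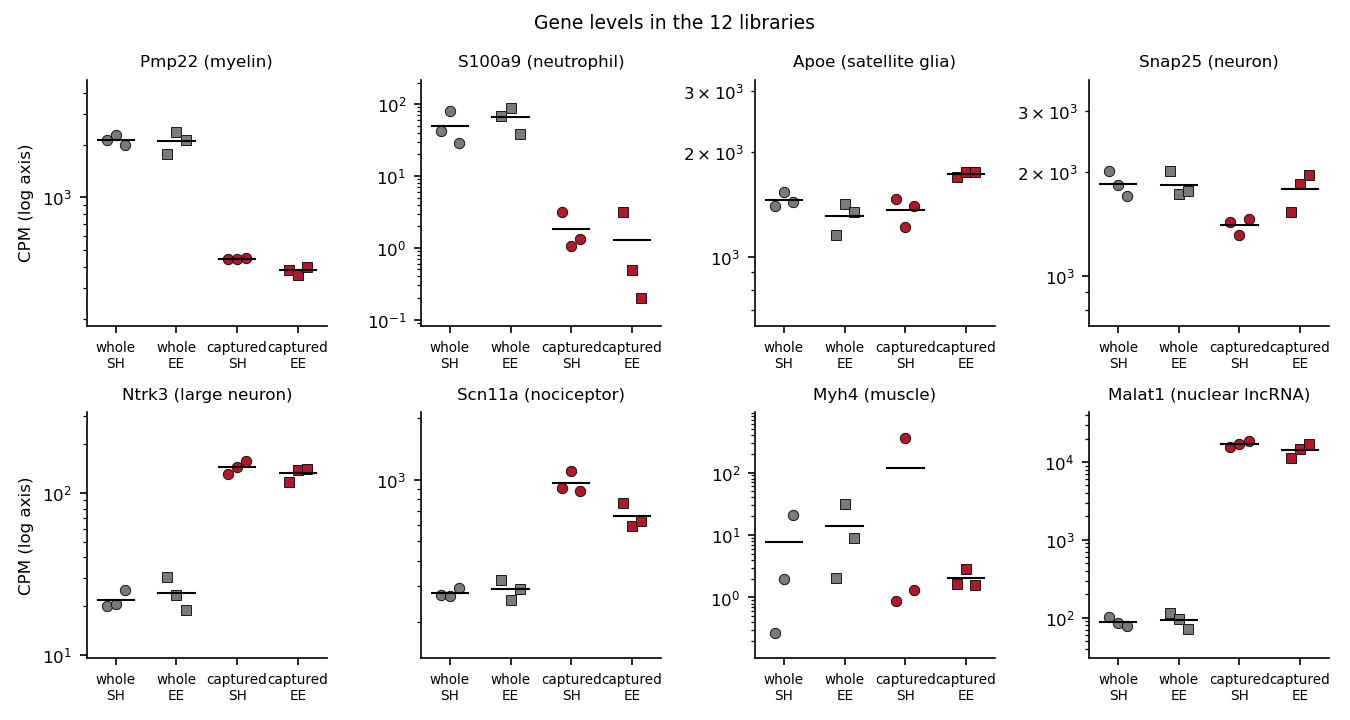
CPM of 8 genes on log axes in each of the 12 libraries, with circles for standard housing, squares for enriched housing, grey for whole ganglia, red for captured neurons, and a bar at the mean of each group of 3. Pmp22 and S100a9 are lower and Ntrk3, Scn11a and Malat1 higher in every captured library, while Apoe and Snap25 overlap between preparations and Myh4 reaches 359 CPM in 1 captured library.

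Genes of neutrophils and lymphocytes had the most negative median of the 14 cell-type lists when averaged over both housings and in EE, whereas in SH that of adipocytes was lower still. All 10 tested were called lower, with a median log2 difference of −3.13 in SH and −4.31 in EE, or 12.6-fold lower on average. Cd3e and Cd3g, both T cell receptor subunits, were too low to be tested. S100a9, a calcium-binding protein of neutrophils, held 42.4, 79.5 and 29.0 CPM in whole SH, 68.7, 88.9 and 38.6 CPM in whole EE, 3.14, 1.06 and 1.34 CPM in captured SH and 3.13, 0.487 and 0.198 CPM in captured EE. Among captured libraries it was highest in replicate 1 of either housing, and even these values lay below every whole library.

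Of 7 tested red cell genes, 4 were called lower and 0 higher (median −1.96 in SH and −3.07 in EE). Hba-a1, an alpha globin, held 50.2 to 154 CPM in whole and 2.38 to 6.98 CPM in captured libraries, with a log2 difference of −4.31. The alpha globin genes are near-identical copies, and the counting could split their reads. Hbb-b1, a beta globin on none of the lists, was lower too (−4.96). Of 6 tested adipocyte genes, 4 were lower and 0 higher (median −3.17 in SH and −1.34 in EE), and with length and GC offsets 1 was lower. Cfd, an adipocyte complement protease, overlapped between the preparations, since captured EE replicates 1 and 3 held 2.12 and 3.72 CPM and whole EE replicate 1 held 2.67 CPM.

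Fibroblast and meningeal genes were mostly lower, 11 of 16 being called lower and 1 higher, with medians of −1.45 in SH and −1.36 in EE. Ptgds, a prostaglandin synthase of the meninges, held 139 to 310 CPM in whole ganglia. Captured libraries held 3.29 to 10.8 CPM, apart from EE replicate 2 with 34.1 CPM, and none reached the whole range. Mgp, an inhibitor of matrix calcification, was lower by a log2 difference of −3.43. Dcn, a matrix proteoglycan, went from 361 to 445 CPM to 124 to 219 CPM. Col6a3, a collagen chain with a transcript of 10106 bases, was the 1 gene called higher (1.25), and with scaling by library size alone it was no longer called.

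Macrophage, endothelial and mural lists were mixed. Of 17 macrophage genes, 8 were lower and 0 higher (median −1.22 in SH and −0.95 in EE). Among them, the complement gene C1qb was at 11.2 to 16.0 CPM in whole and 1.82 to 3.53 CPM in captured libraries, and the lysozyme gene Lyz2 had a log2 difference of −1.72. Mrc1, the mannose receptor of tissue macrophages, was not called in both housings, with 10.8 to 14.2 CPM in whole and 18.6 to 31.1 CPM in captured libraries and a transcript of 5374 bases. Of 16 endothelial genes, 2 were lower, Eng (−1.90) and Ly6c1 (−1.73), and 0 higher, both shares below those over all tested genes. The VEGF receptors Flt1 (0.90) and Kdr (1.00), with transcripts of 6895 and 5924 bases, were not called. Of 12 mural genes, 3 contractile genes were lower, Tagln (−2.47), Cnn1 (−1.90) and Acta2 (−1.30), and the potassium channel regulator Abcc9 (1.63, transcript of 7499 bases) was higher. Over all tested genes, 17.3% were lower and 13.9% higher. For Tagln, 67.9% of the exonic bases lie under exons of the other strand.

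**Figure D3:**
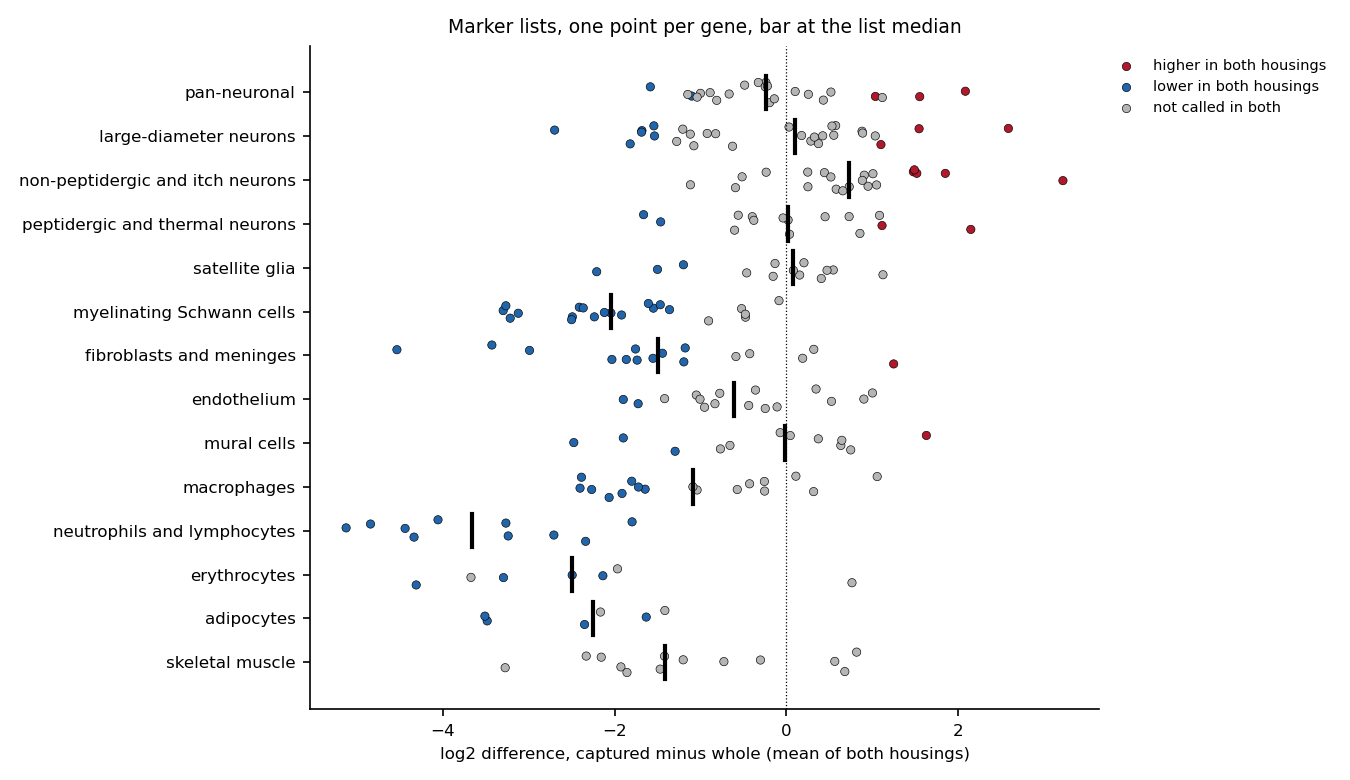
Log2 difference between captured and whole libraries, averaged over both housings, for each tested gene of 14 marker lists, coloured by call, with a bar at each list's median. All 10 genes of neutrophils and lymphocytes and 16 of 21 of Schwann cells are called lower, while the 4 neuronal lists and satellite glia spread to both sides of 0.

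Satellite glial genes showed no common direction in their differences. Of 13, 3 were lower, against 17.3% of all tested genes, and 0 higher. Their median was −0.10 in SH and 0.21 in EE. The median averaged over both housings was 0.08, while the mean of the members was −0.20, and with library size alone the median was −0.13. Apoe, a lipid carrier abundant in these glia, held 1402, 1534 and 1441 CPM in whole SH, 1158, 1422 and 1341 CPM in whole EE, 1462, 1219 and 1401 CPM in captured SH and 1698, 1760 and 1752 CPM in captured EE. Its log2 differences were −0.10 in SH and 0.41 in EE, and the averaged sign turned with library size alone (−0.05). Fabp7, a fatty acid binding protein of satellite glia, held 130 to 173 CPM in whole libraries, 164 to 170 CPM in captured SH and 250 to 326 CPM in captured EE. The genes called lower were Atp1b2, a sodium pump subunit (−2.21), Hepacam, an adhesion protein (−1.50), and Lgi4, a secreted glial protein (−1.20). The endothelin receptor Ednrb (1.12) was not called.

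Pan-neuronal genes were not higher as a list in captured libraries. Of 23, 3 were called higher and 2 lower, with a median of −0.32 in SH and −0.13 in EE, and with library size alone 2 were higher and 5 lower. With the reported scaling, 13.9% of all tested genes were called higher and 17.3% lower, so neither share of this list was larger. Their summed level was 16490 to 17372 CPM in whole and 13192 to 14365 CPM in captured libraries. The median level of the members went the other way, from 8.27 ± 0.16 (SD, n = 3) in whole SH to 8.70 ± 0.05 in captured SH on the log2(CPM + 0.5) scale. Snap25, a vesicle fusion protein of all neurons, held 2011, 1839 and 1707 CPM in whole SH, 2011, 1731 and 1767 CPM in whole EE, 1434, 1318 and 1465 CPM in captured SH and 1539, 1846 and 1961 CPM in captured EE. Its captured SH libraries lay below all whole libraries, and its captured EE libraries overlapped them (−0.40 and −0.04). Lower calls were the splicing factor Rbfox3 (−1.10) and the surface protein Thy1 (−1.58). Higher calls were the microtubule protein Map2 (2.08), the RNA-binding protein Elavl4 (1.04) and the noncoding Snhg11 (1.55). Tubb3, the neuronal beta tubulin, had a difference of −1.04 and was not called in both housings.

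Markers of the labelled cell type, large-diameter neurons, were not higher as a list in captured libraries. Of 28 tested, 3 were higher and 6 lower, shares near those over all tested genes, and with length and GC offsets 0 were higher and 3 lower. Their summed level was 14400 to 16390 CPM in whole ganglia, 17900 and 18523 CPM in captured EE replicates 2 and 3 and 10878 to 13414 CPM in the other captured libraries. The median was −0.14 in SH and 0.27 in EE, and averaged over both it was 0.10, with a mean of −0.24 and a median of −0.11 with library size alone. Higher were the neurotrophin receptor Ntrk3, the sodium channel Scn1a (1.54) and the potassium channel Kcna2 (1.10). Among the lower ones were the secreted phosphoprotein Spp1 (−1.82), the scaffold Whrn (−1.69), the glutamate transporter Slc17a7 (−1.68) and the matrix link protein Hapln4 (−1.54).

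Ntrk3, the NT-3 receptor of proprioceptors and touch neurons (chr7:78175959-78738012, minus strand, mm10), held 20.2, 20.7 and 25.1 CPM in whole SH and 30.1, 23.4 and 19.1 CPM in whole EE. Captured libraries held 130, 146 and 157 CPM in SH and 116, 139 and 141 CPM in EE, all above every whole library. The log2 difference was 2.72 in SH and 2.45 in EE. Its transcript spans 19703 bases, and with offsets for transcript length and GC content the averaged difference was 0.47.

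Pvalb, the calcium buffer of proprioceptors, went the other way. Whole libraries held 106, 107 and 110 CPM in SH and 108, 125 and 104 CPM in EE, and captured libraries 36.5, 39.0 and 38.9 CPM in SH and 29.6, 89.4 and 84.7 CPM in EE. All captured values lay below all whole values, and the 2 highest were EE replicates 2 and 3. Within sequencing lane 3, which carried those 2 libraries and SH replicates 1 and 3, the EE values were still the higher ones. Nefh, the heavy neurofilament, had the same libraries highest, with 2046, 1808 and 2315 CPM in captured SH and 2110, 3457 and 3643 CPM in captured EE, against 2071 to 2455 CPM in whole ganglia. Its log2 differences were −0.18 in SH and 0.53 in EE, and with library size alone the averaged value was −0.03.

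Among markers of small neurons, those of non-peptidergic and itch neurons were not lower as a list. Of 21 genes of non-peptidergic and itch neurons, 5 were called higher and 0 lower (median 1.16 in SH and 0.48 in EE), and with library size alone 3 higher and 1 lower. With the reported scaling, 13.9% of all tested genes were called higher and 17.3% lower. Scn11a, the sodium channel NaV1.9 of nociceptors, held 274, 270 and 294 CPM in whole SH, 322, 258 and 293 CPM in whole EE, 911, 1106 and 876 CPM in captured SH and 772, 595 and 627 CPM in captured EE. Every captured library exceeded every whole one, with log2 differences of 1.79 and 1.19, and the averaged difference with length and GC offsets was 0.91. Also higher were Mrgprb5, an orphan receptor (1.74 to 2.46 CPM in whole and 13.2 to 30.5 CPM in captured libraries), the serotonin receptor Htr1f (1.85), the transcription factor Runx1 (1.52) and the receptor Mrgprb4 (1.48). Mrgprd, the receptor that defines polymodal non-peptidergic nociceptors, held 105 to 122 CPM in whole libraries, 242 to 296 CPM in captured SH and 194 to 224 CPM in captured EE, and passed the threshold in SH (1.25) and not in EE (0.85). The purinergic receptor P2rx3 had a difference of −1.12 and was not called.

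Genes of peptidergic and thermal neurons were called in both directions, at shares near those over all tested genes. Of 15, 2 were higher and 2 lower (median −0.13 in SH and 0.05 in EE). Their summed level was 2431 to 2624 CPM in whole and 1425 to 1991 CPM in captured libraries. By contrast, the median level of the members was higher in every captured library than in any whole one. It was 5.51 to 5.81 in whole and 6.32 to 6.85 in captured libraries, on the log2 scale used for the pan-neuronal list. Averaged over both housings the median difference was 0.02, and −0.19 with library size alone. Calca, which encodes the neuropeptide CGRP, held 1364, 1325 and 1441 CPM in whole SH, 1338, 1484 and 1348 CPM in whole EE, 513, 428 and 440 CPM in captured SH and 643, 482 and 515 CPM in captured EE. It was lower in every captured library (−1.58 and −1.35), as was the neuropeptide Gal (−1.66). Oprm1, the mu opioid receptor, held 11.3 to 16.2 CPM in whole and 47.2 to 64.9 CPM in captured libraries (2.37 in SH and 1.93 in EE). The second gene called higher was the BMP receptor Bmpr1b (1.11).

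Within the 87 neuronal genes of these lists, the difference went with transcript length (Spearman rho 0.42) and against GC content (rho −0.53), as a description across genes that share the same 12 libraries. Of 33 genes with transcripts of at least 4000 bases, a division chosen after the values were seen, 26 had positive differences, 9 were called higher and 2 lower. Of 54 shorter ones, 22 had positive differences, 4 were called higher and 8 lower. The medians were 0.86 and −0.31.

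Skeletal muscle genes varied between libraries of 1 group. Myh4, a fast myosin heavy chain, held 0.274, 1.95 and 21.1 CPM in whole SH, 2.09, 31.0 and 8.97 CPM in whole EE, 0.867, 359 and 1.34 CPM in captured SH and 1.66, 2.87 and 1.59 CPM in captured EE. Captured SH replicate 2 stood above all other libraries. The summed level of the 13 muscle genes was 922 CPM in that library, 5.13 to 17.8 CPM in the other captured libraries and 4.60 to 237 CPM in whole ganglia. No muscle gene was called, the median being 1.61 in SH and −4.20 in EE. Without captured SH replicate 2 it was −2.80 in SH, with 5 genes lower in both housings, and Myh4 turned from 0.56 to −2.74 when only captured libraries of lane 3 were used.

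Abundant small RNAs that lack a poly(A) tail were much higher in captured libraries, beside the change from poly(A) selection to ribosomal depletion. Of 3 tested abundant small RNAs, all were called higher, with medians of 10.2 in SH and 10.4 in EE. Rn7sk, the 7SK RNA that restrains transcription elongation, held 0.988 to 1.71 CPM in whole and 1236 to 2352 CPM in captured libraries, from 117 and 211170 reads in all. Rpph1, the RNA of RNase P, had 11 reads in all whole libraries and 25242 in captured ones. Of 13 tested small nucleolar and Cajal body RNAs, 11 were higher and 1 lower, the lower one being Snord91a (−2.66). Their median was 3.31 in SH and 6.82 in EE, a difference between housings that was not tested for the list. The averaged median was 5.14, or 4.86 with the 2 genes that had no read in whole ganglia, Scarna17 and Snora74a, set at a floor of 3 counts over the group. Another 111 of these genes were too low to be tested. Scarna17, Snora74a and Rpph1 passed the count filter only through captured libraries, so their direction was nearly fixed by their entry into the test. These genes are examples. In whole libraries the 13 small nucleolar and Cajal body RNAs summed to 2.91 to 4.54 CPM, and the median member had hardly any reads. The 3 abundant small RNAs summed to 1.06 to 2.06 CPM there, most of it Rn7sk. Many other higher calls on both lists were therefore probably fixed in the same way.

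Malat1, an abundant nuclear long noncoding RNA (chr19:5795690-5802672, minus strand, mm10), held 101, 86.4 and 78.0 CPM in whole SH and 114, 95.0 and 71.3 CPM in whole EE. It held 15740, 17069 and 18349 CPM in captured SH and 11267, 14826 and 17219 CPM in captured EE. The log2 difference was 7.59 in SH and 7.27 in EE, or 173-fold on average. In captured libraries it took 1.06 to 1.70% of the reads in genes. Of 12 nuclear long noncoding RNAs tested, with medians of 1.00 in SH and 0.79 in EE, 5 were higher, Malat1, Mirg (3.84), Xist (2.69), Meg3 (2.59) and Miat (2.25), and the imprinted antisense RNA Nespas was lower (−1.79). The other 6 were not called, among them Rian (0.87). With length and GC offsets, 4 were higher and the averaged median was 0.39.

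The mitochondrial genome showed both directions. The ribosomal RNA mt-Rnr2 was at 281 to 435 CPM in whole and 4617 to 6980 CPM in captured libraries (3.99), and mt-Rnr1 differed by 1.65. Of 11 mitochondrially encoded protein genes, 7 were lower and 1 higher, with medians of −1.24 in SH and −1.47 in EE. The respiratory subunit mt-Cytb was 5340 to 7479 CPM in whole and 1347 to 1777 CPM in captured libraries. The oxidase subunit mt-Co1 had a difference of −0.49 and was not called. The higher one, mt-Atp6, rested on 46 reads in all whole libraries, and its neighbours on the compact mitochondrial genome overlap or abut it. The serine transfer RNA mt-Ts1 was lower (−4.29), from 272 to 382 CPM to 13.7 to 25.7 CPM, and it overlaps the end of mt-Co1 on the other strand. Of 10 mitochondrial transfer and ribosomal RNAs tested, 5 were higher and 2 lower, with an averaged median of 0.77 that turned to −0.26 with length and GC offsets.

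Replication-dependent histone genes are a textbook case of mRNAs without a poly(A) tail. Their transcripts end just after a short stem-loop, although some members can also be made with a poly(A) tail from a signal further downstream. Of 70 clustered histone genes in the files, 29 were tested, 18 were called higher in captured libraries and 2 lower, with medians of 2.74 in SH and 2.49 in EE. Some of the 29 passed the count filter only through captured libraries, such as Hist1h4f (0 reads in whole, 114 in captured) and Hist2h2bb (5 and 1945). For such genes a higher call was nearly fixed by their entry into the test. The 41 untested genes held 182 reads in whole and 794 in captured libraries. The stem-loop was searched as GG, any 2 bases, CT, a loop of any 4 bases, AG, any 2 bases and CC, 16 bases in all, whose stem of 6 bases had to pair in full, on the transcript strand only and at any position of GENCODE vM21 transcripts (mm10). It was found in 437 of 141767 transcripts (0.308%) and in at least 1 transcript of 46 of the 70 histone genes. The following sites are shown because genes called higher, lower and not at all carry almost the same hairpin. None lies at the end of its annotated transcript. The bases after the stem-loop number 770 in Hist1h4d, 1153 in Hist1h1e, 155 in Hist1h2bg, 840 in Hist1h1c and 169 in Hist3h2ba. Capitals mark the stem-loop and lower case the flanking bases, 5′ to 3′ on the transcript strand.
Hist1h4d: accaaaGGCCCTTTTCAGGGCCactacc
Hist1h1e: cccaaaGGCTCTTTTCAGAGCCacccac
Hist1h2bg: cccaaaGGCTCTTTTCAGAGCCacccat
Hist1h1c: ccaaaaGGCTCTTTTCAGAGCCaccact
Hist3h2ba: cccaaaGGCTCTTTTCAGAGCCaccttc

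Hist1h4d, an H4 gene (site at chr13:23581944-23581971, plus strand), had 2 reads in all whole libraries and 12378 in captured ones, or 0 to 0.0712 CPM against 80.6 to 140 CPM. This gene also passed the count filter only through captured libraries. Hist1h1e, a linker histone (chr13:23621776-23621803, minus strand), held 0.427 to 0.668 CPM in whole and 13.0 to 17.1 CPM in captured libraries (4.73). Hist1h2bg, an H2B gene (chr13:23571837-23571864, plus strand), held 0.456 to 0.992 CPM and 7.57 to 11.0 CPM (3.72). All 3 were higher in every captured library. Hist1h1c, another linker histone (chr13:23739506-23739533, plus strand), held 62.1 to 71.8 CPM in whole and 46.5 to 59.0 CPM in captured libraries, a difference of −0.40 that turned to 0.40 with length and GC offsets. Hist3h2ba, an H2B gene (chr11:58949343-58949370, plus strand), was lower in every captured library (−2.66), and the second lower gene was the H3 gene Hist2h3c2 (−1.62).

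Counts also differed by what the annotated transcript ends held. AATAAA, the commonest poly(A) signal, was searched in the last 40 bases of each transcript on its own strand, where 25.8% of all transcripts had it. Of 7 tested histone genes with a transcript ending this way, Hist1h1c and Hist3h2ba among them, 2 were higher, 1 lower and 4 not called (median 0.14). Of 22 without it, 16 were higher, 1 lower and 5 not called (median 3.29). The groups were unlike in level, with whole-ganglion medians of 6.20 CPM with the signal and 0.143 CPM without it. Many genes without it therefore passed the count filter only through captured libraries, which favours higher calls in that group. Of 22 genes with the hairpin, 13 were higher and 2 lower (median 2.81), and of 7 without it, 5 were higher and 0 lower. These are counts in small groups and were not tested. A match or its absence describes these annotated transcripts only, and clustered histone genes are similar enough that the counting could split their reads.

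Genes annotated as antisense were lower in captured libraries. Of 584 tested, 409 (70.0%) were called lower and 24 higher, with a median of −3.01. The strand setting of the counting is not given in the sources used here, and without strand, reads of a gene and of its antisense partner cannot be told apart. For 460 antisense genes with a tested protein-coding partner, the median level was 2.95 CPM in whole and 0.361 CPM in captured libraries, while that of the partners was 30.6 and 29.5 CPM. Across these pairs, levels of antisense gene and partner had a Spearman rho of 0.63 in whole and 0.34 in captured libraries.

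Gm20721 lies opposite Gnas, which encodes a G protein alpha subunit, and 99.0% of its exonic bases are under Gnas exons (chr2:174330319-174346712, minus strand). Its whole libraries held 1568, 1624 and 1621 CPM in SH and 1542, 1554 and 1568 CPM in EE, close to the 1538 to 1670 CPM of Gnas in the same libraries. Captured libraries held 22.8, 21.5 and 26.4 CPM in SH and 22.7, 30.2 and 22.8 CPM in EE, with Gnas at 702 to 838 CPM. Gm12999, wholly under exons of the ATPase inhibitor Atpif1, went from 165 to 193 CPM to 3.79 to 6.51 CPM, while Atpif1 held 158 to 224 CPM and 168 to 224 CPM. The same held for Gm14703 opposite the vesicle protein Syp (−5.32 against −0.14) and for Gm16832 opposite the ubiquitin hydrolase Uchl1 (−5.48 against −0.89). Fam166a, a protein-coding gene with 10.8% of its exons under the tubulin gene Tubb4b, had −5.73 against −0.18 for Tubb4b.

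Protein-coding genes showed a gradient with this overlap. Of 10242 without exon overlap on the other strand, 11.8% were called lower and 12.5% higher. With 10 to 25% of exonic bases overlapped, 23.0% were lower and 5.66% higher, with 25 to 50%, 33.6% and 3.17%, and of 158 genes with over 50%, 51.9% and 2.53%. The medians went from 0.07 to −1.27. The strongest calls were also taken among protein-coding genes with a log2 CPM averaging at least 5. Of the 50 called lower with the most negative differences, 28 overlapped, and of the 50 called higher with the most positive, 17. Among all tested protein-coding genes, with no limit on level, 30.9% did. Over all 11087 genes with no such overlap, 15.1% were called higher and 11.6% lower, so the excess of lower calls in the whole set was not present there. When only genes without an annotation match or with at least 10% overlap were left out, 1818 were higher and 1991 lower.

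**Figure D4:**
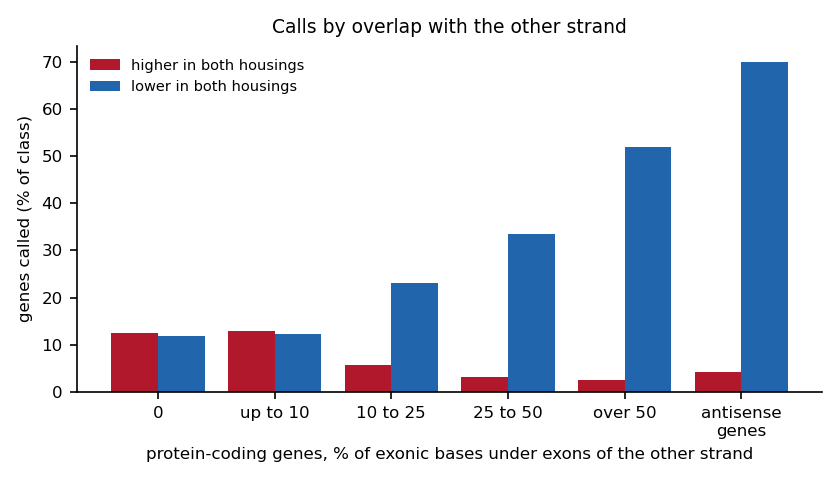
Share of genes called higher (red) and lower (blue) in captured libraries in both housings, in percent, for protein-coding genes by the share of their exonic bases under exons of the other strand, and for antisense genes. The share called lower goes from 11.8% without overlap to 51.9% above 50% overlap and to 70.0% of antisense genes.

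Transcript length and base composition went with the difference as well. Among the 10242 protein-coding genes without overlap, the Spearman rho was 0.50 with transcript length and −0.55 with GC content, and −0.24 between length and GC. In the quintile of genes with the shortest transcripts, 255 to 1978 bases, 27.9% were lower and 4.10% higher, with a median of −0.60. In the quintile with the longest, 5246 to 40378 bases, 1.42% were lower and 36.0% higher, with a median of 0.84. In the quintile with the lowest GC content, 31.0 to 43.6%, 28.7% were higher and 2.00% lower (median 0.69), and in the highest, 55.3 to 72.8%, 1.32% were higher and 30.9% lower (median −0.76). With offsets for length and GC content fitted per library, 1153 genes were called higher and 1819 lower. RNA integrity, read length and kit run along with preparation, and their part in this was not tested.

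**Figure D5:**
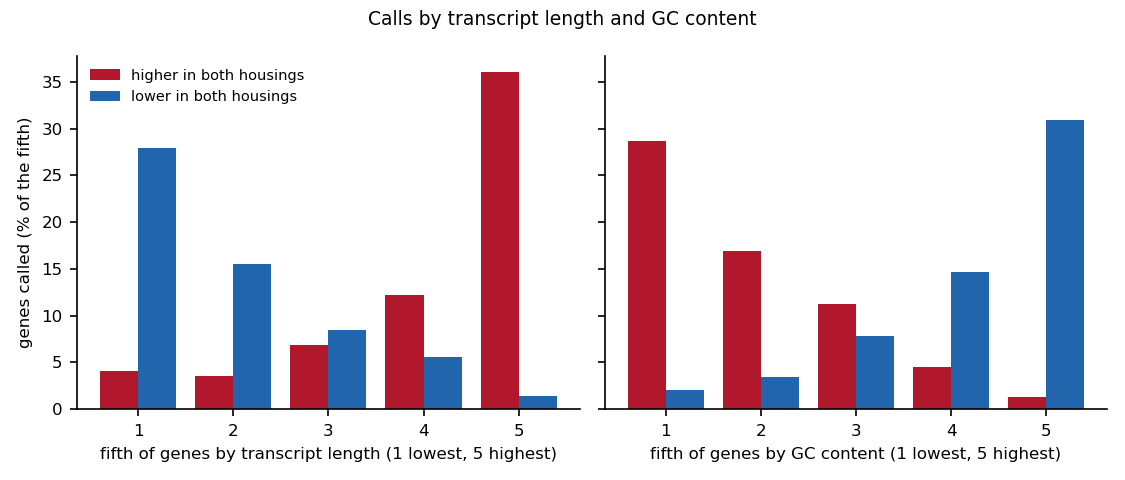
Share of 10242 protein-coding genes without exon overlap called higher (red) and lower (blue) in captured libraries in both housings, in percent, by quintiles of transcript length (left) and of GC content (right). The share called higher goes from 4.10% in the shortest to 36.0% in the longest quintile, and from 28.7% in the lowest to 1.32% in the highest GC quintile.

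Genes of ribosomal proteins and of the respiratory chain were lower in part. Of 83 tested genes of cytoplasmic ribosomal proteins, with a median transcript of 1094 bases, 33 were lower and 1 higher (medians −0.78 in SH and −0.75 in EE), and with the offsets 14 were lower with a median of −0.30. Rps14 was the lowest (−2.76, from 127 to 222 CPM to 17.8 to 30.3 CPM), and Rpl3 had a difference of −0.02. The higher one, Rps3a2, had 10 reads in whole and 721 in captured libraries and shares sequence with the other Rps3a genes. Rps3a2 passed the count filter only through captured libraries, so its direction was nearly fixed by its entry into the test. Of 91 nuclear-encoded respiratory chain subunits, 28 were lower and 0 higher (medians −0.72 in SH and −0.51 in EE), and with the offsets 15 were lower and 4 higher with a median of −0.22. Uqcr10, a subunit of complex III, was the lowest (−3.09). Of 16 glycolytic genes, 2 were lower, Gapdh (−1.61) and Tpi1 (−1.48), and 0 higher, a share below that of lower calls over all tested genes. Gapdh held 1119 to 1190 CPM in whole and 363 to 419 CPM in captured libraries, and the list median with the offsets was −0.06.

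Among genes on none of the lists, with a GENCODE match and a log2 CPM averaging at least 5, predicted genes aside, Fat3, a giant cadherin with a transcript of 18760 bases, had the largest difference of those called higher. It held 24.0, 21.5 and 21.3 CPM in whole SH, 28.0, 20.3 and 24.0 CPM in whole EE, 721, 682 and 745 CPM in captured SH and 775, 867 and 852 CPM in captured EE. The log2 difference was 5.00 in SH and 5.11 in EE, and 3.17 on average with the offsets. Lrp1b, a large lipoprotein receptor, was higher too, at 5.33 to 8.10 CPM in whole and 85.7 to 111 CPM in captured libraries (3.88, and 1.98 with the offsets). Gm10800, a predicted gene, had 2 reads in all whole libraries and 413 to 1022 CPM in captured ones. Since it passed the count filter only through captured libraries, its direction was nearly fixed as well.

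On the lower side, the most negative by the same rule was Lars2, the mitochondrial leucyl-tRNA synthetase, with no exon overlap on the other strand. It held 1562, 2279 and 2201 CPM in whole SH, 1930, 2644 and 1896 CPM in whole EE, 25.2, 32.3 and 23.4 CPM in captured SH and 22.7, 19.9 and 23.1 CPM in captured EE. The log2 difference was −6.22 in SH and −6.62 in EE, and the preparations were far from overlapping. Gm23935, a small predicted RNA of 57 bases, was lower by a log2 difference of −7.55.

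Genes that respond to injury or to stimulation were lower in part. Of 18 tested genes of axon injury and growth, 8 were lower and 0 higher (medians −1.11 in SH and −1.26 in EE), and with the length and GC offsets 3 were lower. Atf3, a transcription factor induced by nerve injury, held 102, 129 and 102 CPM in whole SH, 126, 128 and 157 CPM in whole EE, 13.2, 55.0 and 28.7 CPM in captured SH and 25.7, 17.3 and 47.9 CPM in captured EE. All captured values lay below all whole values, and they spread from 13.2 to 55.0 CPM (−1.78 and −2.18). Also lower were the small proline-rich protein Sprr1a (−3.37), the endopeptidase-like Ecel1 (−2.30) and the growth cone protein Basp1 (−1.21). Gap43, another growth cone protein, had a difference of −0.49.

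Of 19 immediate early genes, 8 were lower and 0 higher (medians −1.13 in SH and −0.93 in EE). Ier2 held 4.10 to 5.77 CPM in whole and 0.595 to 1.28 CPM in captured libraries (−2.46). Jund, a partner of Fos, had −1.51, which became 0.06 with length and GC offsets. Exons of the other strand cover 52.6% of its exonic bases. Of the 14 immediate early genes without any such overlap, 4 were lower. Fos itself, at 7.27 to 8.43 CPM and 3.44 to 6.70 CPM, was not called (−0.77). Of 14 heat shock genes, 1 was higher and 2 lower (medians 0.28 in SH and 0.46 in EE). Both shares lay below those over all tested genes. The chaperone Hsp90aa1 was higher (1.08) and was not called with library size alone, while the small heat shock proteins Cryab (−2.54) and Hspb1 (−1.80) were lower.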

How the data were processed

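RNA-seq read counts per gene name were deposited by the authors as 1 table per preparation, with 1 column per library. Per the submitters' processing notes, the tools were FastQC 0.10.1, HTSeq 0.6.0, TopHat2 2.0.12, SAMtools 0.1.19, R 3.1.1, Bowtie2 2.2.3, limma 3.22.7 and edgeR 3.8.6 and the build mm10, with no roles given, and the strand setting of the counting is not given in the sources used here. The tables were joined on 44345 gene names, and 5 summary rows that name no gene were left out. They held reads outside any feature (47.0 to 47.6% of all in whole and 28.0 to 36.3% in captured libraries), ambiguous reads and reads not aligned uniquely. Whole-ganglion columns have Sham in their names, a word absent from the labels, and were assigned by housing and number.

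Counts of all 12 libraries were fitted with edgeR 4.0.16 in R 4.3.3 (quasi-likelihood, 4 group means, filterByExpr, TMM factors of 0.906 to 1.09), and limma 3.58.1 and DESeq2 1.42.0 gave alternatives. The fit was tested on simulated data. Biotype, position, transcript length, GC content, exon overlap and sequences came from GENCODE vM21, which matched 82.3% of names, 1497 of them by a synonym. No libraries of a group were duplicates, their chi-square per degree of freedom being 3.94 to 21.9.

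The members, the 26 gene lists and the rule for named genes were chosen with earlier results of these data known. The rule takes genes called in both housings with non-overlapping libraries whose log2 CPM averages at least 5, the 12 with the largest difference per direction and 8 per direction outside the lists, the 4 most abundant and the 2 extreme members of each list, the 5 smallest interaction p-values and 12 set genes. Other genes were named after their values were seen, and some genes that the rule takes are not reported here. Alternatives covered scaling, filter, tool, fold, block, lane, length with GC, each library left out and, chosen after seeing the data, genes with at least 10% overlap left out.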

Additional observations from a re-analysis of the deposited data

How the results depend on the processing

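Genes called higher and lower in both housings and past the threshold in SH and in EE numbered 1140, 1471, 3161 and 2862 with an average log2 CPM of at least 3, 5824, 5850, 13107 and 12904 with no minimum fold, 810, 1347, 2567 and 2451 with a minimum log2 difference of 2, and 1153, 1819, 3742 and 3662 with length and GC offsets. The stricter filter tests fewer genes and the fold settings ask for less or more, while for the offsets the cause was not tested. A test against a 2-fold minimum called 1681 higher and 2085 lower. Without overlapping genes, 1991 were lower and 1818 higher. With single libraries left out, the counts ranged from 2424 to 2650, 2818 to 3020, 6476 to 6892 and 5956 to 6511. The housing interaction, 0 in the reported fit, held 457 genes with no filter on low counts, 1 with the stricter filter, 119 with DESeq2, 171 with captured libraries of lane 3, 1 with length and GC offsets and 0 to 233 with a library left out (1 without captured SH replicate 2, 233 without captured EE replicate 1), and the cause was not tested. With the replicate number as a block, 2412, 3030, 6618, 6131 and 0 genes were called, and no count moved by over 1.5 times. Deviations of libraries with the same number correlated at −0.33 to 0.13, and 2 of 6 captured libraries correlated best with their own number, so they share only a number. Signs turned for Myh4 with lane 3 alone (−2.74) and, with length and GC offsets, for Jund (0.062) and the median of mitochondrial transfer and ribosomal RNAs (−0.26), and the cause was not tested. Of 26 list medians, length and GC offsets moved 13 by more than the spread between libraries, and library size alone and the stricter filter 6 each. For named genes, 4164 comparisons kept direction and side of the threshold, 82 gained and 91 lost the call, and 38 uncalled values moved. Genes with under 3 reads in whole ganglia have no interpretable fold at this depth.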
